A study of Mus musculus with 12 samples.

Results

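The genes described are 9 members of the transforming growth factor beta (TGF-beta) pathway, out of 18211 genes in the expression table: the ligands Tgfb1, Tgfb2 and Tgfb3, the receptors Tgfbr1, Tgfbr2 and Tgfbr3, the intracellular proteins Smad3 and Smad7, and the target gene Tgfbi. They were taken by gene symbol, with no threshold on their values. All 9 were found once, and all 9 passed the filter on low counts that left 13563 genes for testing. RNA was sequenced from 12 subcutaneous tumors of MC38, a mouse colon adenocarcinoma cell line, grown in female C57BL/6 mice that were 5 weeks old at purchase. The mice were divided on day 7 after injection into 4 groups, and 3 tumors per group were sequenced. The CK group received vehicle. The PB-020 group was gavaged daily with 50 mg/kg of this inhibitor of IGF-1R, which is the receptor of insulin-like growth factor 1. The anti-PD-1 group was injected with an antibody to the T cell checkpoint receptor PD-1, 200 µg per mouse on days 9, 12, 15 and 18. The PB-020+anti-PD-1 group received both, called the combination below. Every mouse carried the same tumor line in an immunocompetent host, so each library mixes RNA of tumor and host cells, whose transcripts map to the same genome. The tumors were ground whole.

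TGF-beta is secreted in a latent form, held by its own propeptide and by latent binding proteins in the matrix. Once released, it binds the type II receptor, which recruits and phosphorylates the type I receptor, and this kinase phosphorylates SMAD2 and SMAD3, which enter the nucleus with SMAD4. SMAD7 is induced by the signal and blocks the type I receptor, which closes a feedback loop. In tumors the pathway is known for the activation of fibroblasts, matrix deposition and restraint of T cells.

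Library totals lay between 16545394 and 17217035 expected counts, so depth differed little between tumors. The 6 epithelial markers checked against the label of a colon adenocarcinoma line summed to 2.27 to 4.33 FPKM (fragments per kilobase of transcript, scaled to library size) per tumor, and Krt18 was at 0 in all CK tumors. Single libraries stood apart in markers of other tissues. Anti-PD-1 tumor 1 had 565 FPKM summed over 9 skeletal muscle genes, where the other 11 tumors had at most 64.2. Tumor 3 of CK had 388 FPKM over 4 neutrophil genes and 346 FPKM over 5 adipocyte genes, where the other tumors had at most 31.0 and 81.0 FPKM. Anti-PD-1 tumor 1 also had the highest sums of the macrophage list (1398 FPKM) and the T cell list (67.2 FPKM). In whole tumors, fewer cells of a type and less RNA per cell cannot be told apart.

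Tgfbr3 was the member that changed most. It was lower than in CK under anti-PD-1 and under the combination, by edgeR's quasi-likelihood test with Benjamini-Hochberg adjustment over all genes. Tgfb3 was lower and Smad7 was higher under the combination, and Smad7 was also higher under anti-PD-1 alone. The abundant members Tgfb1, Tgfbr2 and Tgfbi, the type I receptor Tgfbr1, Smad3 and the low Tgfb2 did not pass the test in any comparison with CK. The count of members called at an adjusted p under 0.05 was 0 of 9 for PB-020, 2 of 9 for anti-PD-1 (1 higher, 1 lower) and 3 of 9 for the combination (1 higher, 2 lower). Over all genes tested the same rule called 0%, 8.26% (4.18% higher, 4.08% lower) and 17.9% (8.35% higher, 9.6% lower). At a fold over 1.5 with an unadjusted p under 0.05 by edgeR, which takes the thresholds of the study's methods but not its test, 0, 1 and 1 of the 9 were past it, in both latter cases Tgfbr3, where 0.56%, 7.18% and 8.52% of all genes were. At an unadjusted p under 0.05 alone stood 1, 4 and 4 of the 9 members and 5.46%, 26.6% and 33.9% of all genes. The median log2 change of the 9 members was -0.15 for PB-020, -0.03 for anti-PD-1 and -0.15 for the combination, where the median over all genes lay within 0.01 of 0. These comparisons share the CK tumors.

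**Figure D1:**
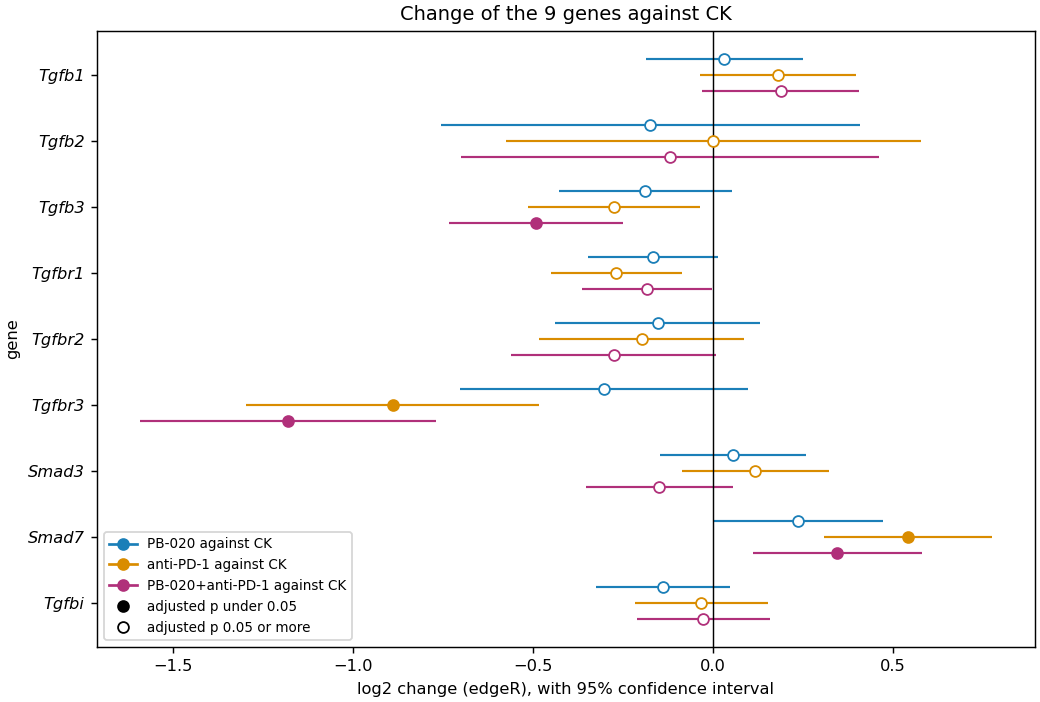
The log2 change of each gene (vertical axis) against CK is shown on the horizontal axis for PB-020, anti-PD-1 and the combination, with 95% confidence intervals from edgeR, and filled points have an adjusted p under 0.05. Tgfbr3 lies farthest to the left at -1.18 in the combination, Tgfb3 is filled only there, and Smad7 is filled to the right of 0 for anti-PD-1 (0.54) and the combination (0.34).

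Among the ligands, Tgfb1 (chr7:25687002-25705077) encodes the isoform that is most widely made by immune cells and platelets. Its level was 45.2, 45.1 and 52.3 FPKM in the CK tumors, 48.1, 47.0 and 48.4 FPKM with PB-020, 61.5, 43.6 and 54.3 FPKM with anti-PD-1, and 50.3, 51.9 and 58.1 FPKM with the combination. Every treated group overlapped CK, and the anti-PD-1 tumors held both the lowest and the highest value of the 12. The log2 change was 0.03 for PB-020 (95% interval -0.19 to 0.25), 0.18 for anti-PD-1 (-0.04 to 0.40) and 0.19 for the combination (-0.03 to 0.41), with adjusted p of 0.984, 0.272 and 0.206. Anti-PD-1 tumor 2 decided the second of these, since without it the log2 change was 0.29 with an adjusted p of 0.0334. Over all genes, 1905 were called without that tumor, against 1120 with all 12 tumors.

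Tgfb2 (chr1:186622787-186709697) encodes an isoform best known from the embryonic heart and the eye, and its level was low here. It was read at 0.67, 0.52 and 0.64 FPKM in CK, 0.45, 0.56 and 0.58 FPKM with PB-020, 0.88, 0.51 and 0.42 FPKM with anti-PD-1, and 0.54, 0.62 and 0.51 FPKM with the combination. These values rest on 34 to 70 expected counts per tumor. All groups overlapped, and the interval of the combination against CK ran from -0.70 to 0.46 on the log2 scale, so neither a moderate loss nor a moderate gain was excluded.

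Tgfb3 (chr12:86056743-86079041) encodes the isoform linked to mesenchymal tissue, palate fusion and wound repair. The CK tumors had 10.4, 14.2 and 12.3 FPKM, the PB-020 tumors 10.96, 11.2 and 9.77 FPKM, the anti-PD-1 tumors 11.4, 9.88 and 8.81 FPKM, and the combination tumors 8.70, 8.19 and 9.05 FPKM. The 3 combination tumors lay below all CK tumors and all PB-020 tumors, whereas either treatment alone overlapped CK. Over all genes tested, FPKM ranges did not overlap between the combination and CK for 40.4%. Tgfb3 fell by 28.8% against CK under the combination (log2 change -0.49, SE 0.11, adjusted p = 0.0114). The changes with PB-020 (-0.19, 95% interval -0.43 to 0.05) and with anti-PD-1 (-0.28, -0.52 to -0.03) did not pass, with adjusted p of 0.874 and 0.134. The call for the combination was kept under all 9 other processing settings but not without CK tumor 2, the tumor with the highest Tgfb3, where the change was -0.38 with an adjusted p of 0.0617. Over all genes, 864 were called without that tumor, against 2434 with all 12 tumors.

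The stretches upstream of the start sites of Tgfb1 and Tgfb2 are shown because these ligands lie at opposite ends of the range of ligand levels, and that of Tgfbi because it is the target gene of the group. Each holds the 250 bases before the start given by RefSeq on GRCm38.p6, 5′ to 3′ on the strand of the gene. The capitals mark CAGAC, the core letters of a SMAD binding element, searched on both strands (GTCTG on the other strand), which 42.2% of 32851 such windows hold at least once. The Tgfb1 window (chr7:25686752-25687001, plus strand) has no match and a GC content of 75.2%, and the Tgfb2 window (chr1:186705990-186706239, minus strand, ahead of a start inside the span of the gene) has 2 matches and a GC content of 53.6%, against a median of 52.4% over all windows. The Tgfbi window (chr13:56609336-56609585, plus strand, GC content 62.4%) has 2 matches, both as GTCTG.
Tgfb1: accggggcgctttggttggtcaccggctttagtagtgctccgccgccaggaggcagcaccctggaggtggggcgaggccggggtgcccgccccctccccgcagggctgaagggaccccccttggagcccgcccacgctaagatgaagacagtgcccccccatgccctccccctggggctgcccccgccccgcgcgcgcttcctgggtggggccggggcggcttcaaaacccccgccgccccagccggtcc
Tgfb2: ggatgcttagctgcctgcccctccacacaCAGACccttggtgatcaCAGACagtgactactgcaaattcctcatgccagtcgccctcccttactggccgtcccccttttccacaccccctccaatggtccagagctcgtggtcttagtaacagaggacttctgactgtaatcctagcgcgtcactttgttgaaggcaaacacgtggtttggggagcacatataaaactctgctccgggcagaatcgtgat
Tgfbi: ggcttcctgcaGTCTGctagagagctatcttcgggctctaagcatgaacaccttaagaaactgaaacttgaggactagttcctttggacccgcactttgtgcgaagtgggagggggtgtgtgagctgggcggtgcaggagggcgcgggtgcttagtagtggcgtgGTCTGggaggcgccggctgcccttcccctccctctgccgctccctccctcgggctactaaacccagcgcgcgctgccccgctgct

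Tgfbr1 (chr4:47353222-47414926) encodes the type I receptor, the kinase that phosphorylates SMAD2 and SMAD3. Its level was 13.4, 16.9 and 14.7 FPKM in CK, 12.5, 14.1 and 12.8 FPKM with PB-020, 12.4, 12.8 and 11.7 FPKM with anti-PD-1, and 13.4, 13.4 and 12.3 FPKM with the combination. The anti-PD-1 tumors lay below CK and the other treated groups overlapped it, and ranges did not overlap between anti-PD-1 and CK for 29% of all genes. The log2 change under anti-PD-1 was -0.27 (95% interval -0.45 to -0.09) and its adjusted p of 0.0638 did not pass. With DESeq2 in place of edgeR it was 0.039, and it was 0.0402 without CK tumor 1 and 0.0499 without anti-PD-1 tumor 2. Over all genes, those fits called 1672, 748 and 1905 in that order, against 1120 in the main fit. The changes for PB-020 (-0.17, -0.35 to 0.01) and the combination (-0.18, -0.36 to -0.0023) had adjusted p of 0.874 and 0.143.

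Tgfbr2 (chr9:116087695-116175363) encodes the type II receptor, which binds the ligand first. The CK tumors had 28.3, 27.1 and 29.2 FPKM, the PB-020 tumors 25.2, 23.2 and 26.5 FPKM, the anti-PD-1 tumors 31.1, 22.3 and 19.5 FPKM, and the combination tumors 22.4, 21.4 and 25.3 FPKM. All PB-020 and all combination tumors lay below the narrow CK range, and the anti-PD-1 tumors straddled it. Ranges were apart between PB-020 and CK for 14.9% of all genes, and between the combination and CK for 40.4%. None of the changes passed: the log2 change was -0.15 for PB-020 (95% interval -0.44 to 0.13), -0.20 for anti-PD-1 (-0.48 to 0.09) and -0.28 for the combination (-0.56 to 0.01), with adjusted p of 0.914, 0.354 and 0.159. The high value under anti-PD-1 belonged to tumor 1, the tumor with the high muscle, macrophage and T cell markers. Without that tumor the change of Tgfbr2 was -0.41 for anti-PD-1 (adjusted p = 0.019) and -0.28 for the combination (adjusted p = 0.0169), and both then passed. The change for the combination also passed with only the 6 tumors compared in the fit (-0.27, adjusted p = 0.0205), which called 2988 of all genes.

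Tgfbr3 (chr5:107106567-107289629) encodes betaglycan, a co-receptor without kinase activity that presents the ligands, above all TGF-beta 2, to the type II receptor and that is also shed from the cell surface. Its level was 11.4, 15.3 and 13.7 FPKM in the CK tumors. It was 12.1, 8.72 and 11.3 FPKM with PB-020, 6.58, 8.78 and 6.15 FPKM with anti-PD-1, and 4.61, 6.16 and 6.80 FPKM with the combination. All tumors that received the antibody lay below all CK tumors, PB-020 alone overlapped CK, and the combination lay below PB-020 alone. Over all genes, ranges were apart from CK for 29% with anti-PD-1 and 40.4% with the combination. Between the combination and PB-020 they were apart for 30.2%. Tgfbr3 fell by 46.0% under anti-PD-1 (log2 change -0.89, SE 0.18, adjusted p = 0.0194) and fell by 55.9% under the combination (log2 change -1.18, SE 0.19, adjusted p = 0.0039). The change with PB-020 alone was -0.30 (95% interval -0.70 to 0.10, adjusted p = 0.874). The call for the combination held in all 9 other processing settings and without each of the 12 tumors, with a log2 change of -1.30 to -1.04 when 1 tumor was left out. The call for anti-PD-1 was lost when only the 6 tumors compared were fitted (-0.89, adjusted p = 0.0591), without CK tumor 2 (-0.79, adjusted p = 0.0834), without anti-PD-1 tumor 1 (-0.82, adjusted p = 0.0754) and without anti-PD-1 tumor 3 (-0.80, adjusted p = 0.0798). Over all genes, these fits called 3, 137, 625 and 238 in that order, against 1120 with all 12 tumors.

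Smad3 (chr9:63646766-63757994) encodes the receptor-activated transcription factor of the pathway. It stood at 12.3, 14.9 and 15.03 FPKM in CK, 13.8, 15.5 and 13.8 FPKM with PB-020, 15.9, 15.7 and 13.6 FPKM with anti-PD-1, and 12.1, 11.4 and 13.8 FPKM with the combination. Each treated group overlapped CK. The log2 change was 0.06 for PB-020 (95% interval -0.15 to 0.26), 0.12 for anti-PD-1 (-0.09 to 0.32) and -0.15 for the combination (-0.35 to 0.06), with adjusted p of 0.968, 0.452 and 0.287.

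Smad7 (chr18:75367365-75395935) encodes the inhibitory SMAD. The CK tumors had 4.87, 6.48 and 6.49 FPKM, the PB-020 tumors 6.73, 7.39 and 6.63 FPKM, the anti-PD-1 tumors 8.88, 8.10 and 8.89 FPKM, and the combination tumors 8.15, 6.23 and 7.58 FPKM. The anti-PD-1 tumors lay above all CK and all PB-020 tumors, and the PB-020 tumors lay just above CK. Over all genes, ranges were apart from CK for 29% with anti-PD-1 and 14.9% with PB-020. Combination tumor 2 fell inside the CK range. Smad7 was 1.46-fold higher under anti-PD-1 (log2 change 0.54, SE 0.11, adjusted p = 0.0133) and 1.27-fold higher under the combination (log2 change 0.34, SE 0.11, adjusted p = 0.0437). With PB-020 alone the change was 0.24 (unadjusted p = 0.0499, adjusted p = 0.874).
The call for anti-PD-1 was lost with only the 6 tumors compared (0.54, adjusted p = 0.0648) and without anti-PD-1 tumor 3 (0.51, adjusted p = 0.0588). Over all genes, these fits called 3 and 238, against 1120 with all 12 tumors. The call for the combination was close to the threshold: it was kept in 4 of 9 other processing settings and without 5 of the 12 tumors, and the adjusted p ranged from 0.0314 to 0.166. It was lowest in size without CK tumor 1 (0.23, adjusted p = 0.145) and was also lost without CK tumor 2 (0.40, 0.0703), PB-020 tumor 1 (0.35, 0.0621) or tumor 3 (0.35, 0.053), anti-PD-1 tumor 3 (0.35, 0.053), and combination tumor 1 (0.27, 0.166) or tumor 3 (0.34, 0.0898). Over all genes, those fits called 1806, 864, 1968, 2163, 2242, 1085 and 2045 in that order, against 2434 with all 12 tumors. With the replicate number as a block it was 0.35 with an adjusted p of 0.069.

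Tgfbi (chr13:56609586-56639359) encodes a secreted matrix protein named for its induction by TGF-beta. Its level was 222, 237 and 208 FPKM in CK, 203, 202 and 192 FPKM with PB-020, 240, 201 and 203 FPKM with anti-PD-1, and 227, 195 and 225 FPKM with the combination. The PB-020 tumors lay just below CK, a separation found for 14.9% of all genes in either direction, and the other groups overlapped it. The log2 change was -0.14 for PB-020 (95% interval -0.32 to 0.05), -0.03 for anti-PD-1 (-0.22 to 0.15) and -0.03 for the combination (-0.21 to 0.16), with adjusted p of 0.875, 0.843 and 0.859. The upstream window of Tgfbi with its 2 matches to the SMAD letters is shown above.

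RefSeq windows were matched for 6 of the 9 members, Tgfb1, Tgfb2, Tgfbr1, Tgfbr2, Smad3 and Tgfbi, and not for Tgfb3, Tgfbr3 and Smad7. Of the 7 windows (Tgfbr1 has 2), those of Tgfb2, Tgfbr2 and Tgfbi and 1 of those of Tgfbr1 held CAGAC on either strand. The palindrome GTCTAGAC and the AP-1 type motif TGANTCA, also searched on both strands and found in 0.167% and 6.75% of all windows, were in none of them. A match of letters is a description and not evidence of binding.

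**Figure D2:**
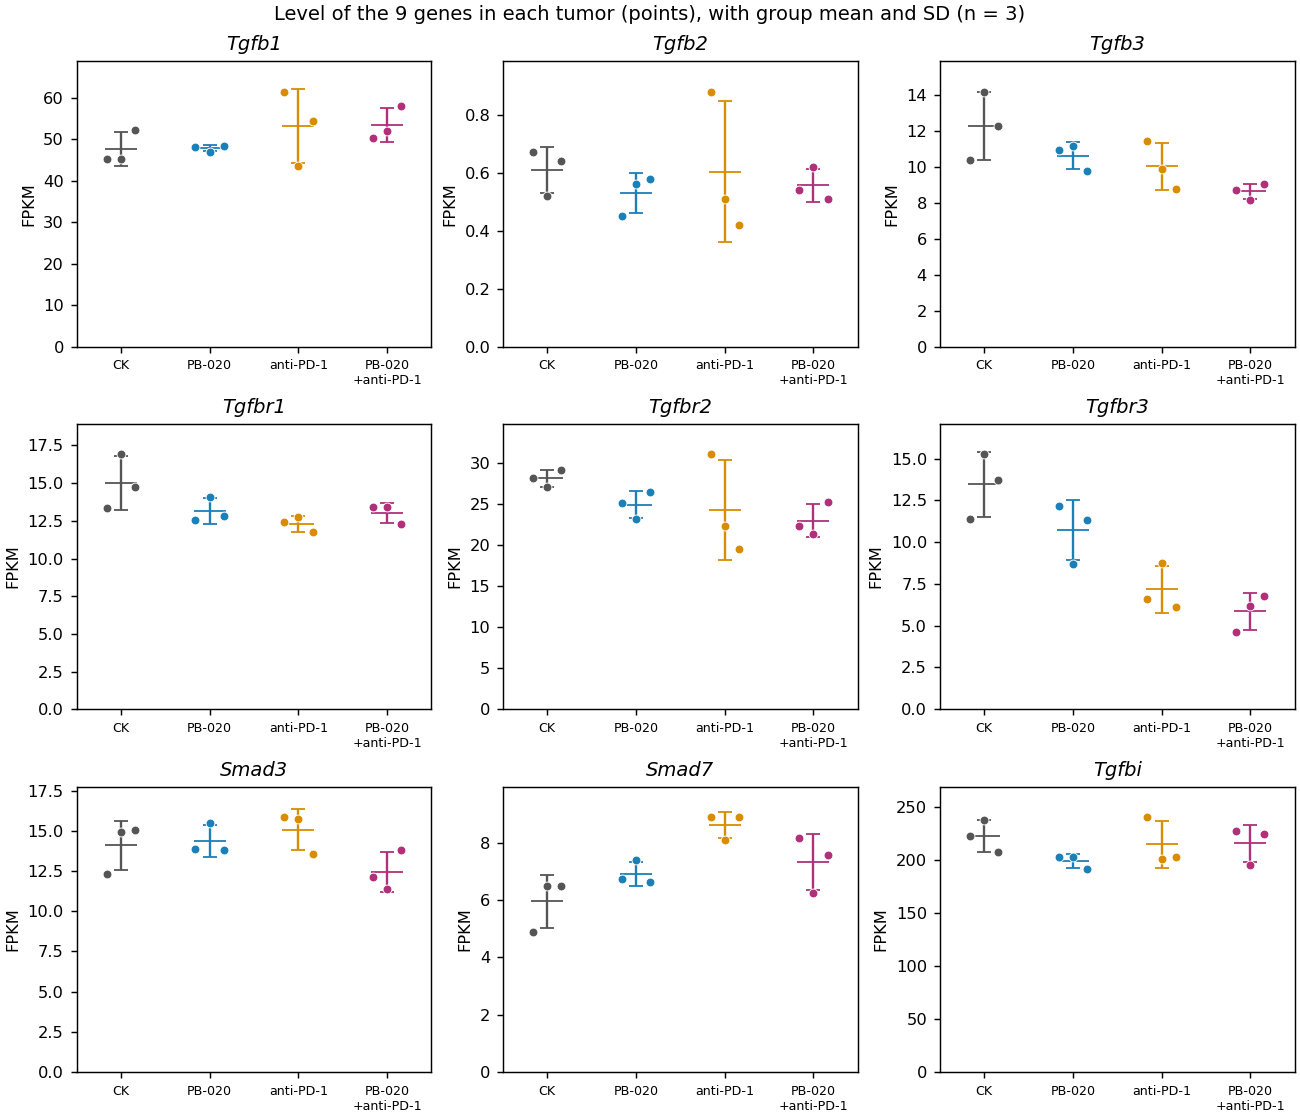
Each panel gives the level of a gene in FPKM (vertical axis, from 0) in the 3 tumors of each group (points), with the group mean (bar) and SD. Tgfbr3 steps down from 13.5 FPKM in CK to 5.86 FPKM in the combination, Tgfb3 from 12.3 to 8.65 FPKM, and Smad7 rises from 5.95 FPKM in CK to 8.62 FPKM with anti-PD-1, whereas Tgfb1, Tgfb2, Smad3 and Tgfbi overlap across the antibody groups and CK.

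In order of mean FPKM, a scale that accounts for transcript length, the CK tumors had Tgfbi at 222 ± 14.9 (SD, n = 3), Tgfb1 at 47.5 ± 4.11, Tgfbr2 at 28.2 ± 1.01, Tgfbr1 at 15 ± 1.79, Smad3 at 14.1 ± 1.53, Tgfbr3 at 13.5 ± 1.93, Tgfb3 at 12.3 ± 1.90, Smad7 at 5.95 ± 0.93 and Tgfb2 at 0.61 ± 0.08. The ranges of Tgfbr1, Smad3, Tgfbr3 and Tgfb3 overlapped from each to the next, and the other neighbours were apart. Tgfbi, Tgfb1 and Tgfbr2 kept ranks 1 to 3 and Tgfb2 rank 9 in all 4 groups. Tgfbr3 was at rank 6 in CK and with PB-020, and at rank 8 with anti-PD-1 and with the combination, where its range overlapped that of Smad7.

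The proportions within each class were computed from TPM (transcript levels scaled to a common total per library) after the levels were seen, so they are given as a description. Tgfb1 made up 78.6% ± 2.78 (SD, n = 3) of the transcripts of the 3 ligands in CK, 81.1% ± 1.22 with PB-020, 83.2% ± 2.35 with anti-PD-1 and 85.3% ± 0.72 with the combination. The share of Tgfb3 went from 20.4% ± 2.91 in CK to 13.8% ± 0.68 with the combination, and that of Tgfb2 stayed between 0.658% and 1.196% in every tumor. Of the transcripts of the 3 receptors, Tgfbr3 held 23.7% ± 2.10 in CK, 21.9% ± 2.74 with PB-020, 16.5% ± 3.44 with anti-PD-1 and 13.9% ± 2.19 with the combination, and Tgfbr2 held between 45.8% and 62.1%. The ratio of Tgfbr2 to Tgfbr1, the receptors that form the signalling complex, was 1.90 ± 0.26 in CK and 1.77 ± 0.25 with the combination, and all groups overlapped. The ratio of Smad3 to Smad7 was 2.53, 2.30 and 2.32 in the CK tumors, 2.06, 2.10 and 2.08 with PB-020, 1.78, 1.94 and 1.53 with anti-PD-1, and 1.49, 1.83 and 1.82 with the combination. The CK tumors, the PB-020 tumors and the tumors given the antibody occupied ranges of this ratio that did not overlap, while the anti-PD-1 and combination tumors overlapped each other. How often ratios of other genes separate in this way was not computed. For single genes, FPKM ranges were apart from CK for 14.9% with PB-020, 29% with anti-PD-1 and 40.4% with the combination. Neither Smad3 nor Smad7 was called with PB-020.

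**Figure D3:**
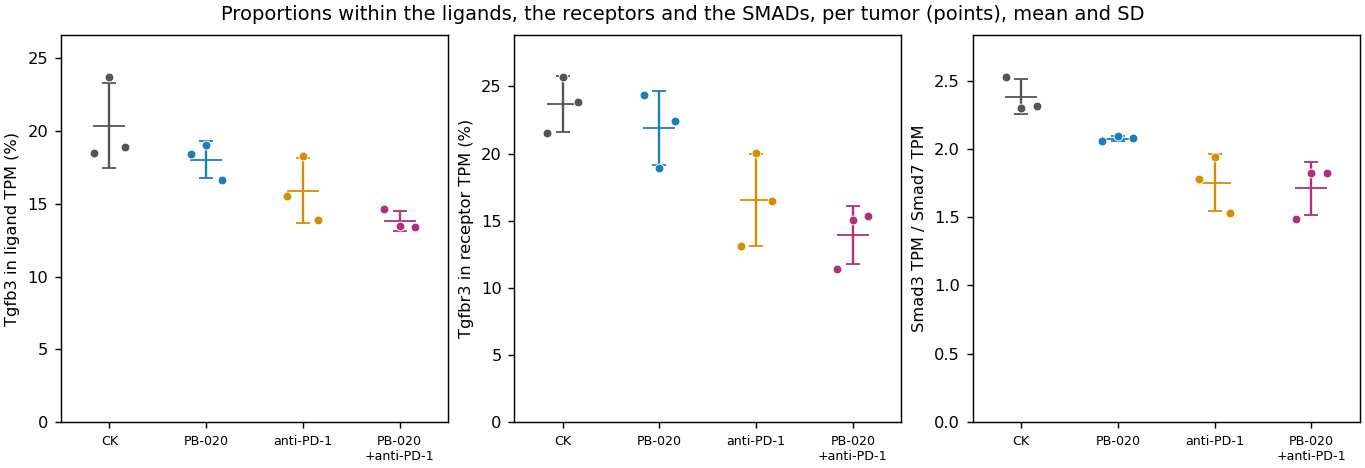
The panels show, per tumor (points) with the mean and SD of each group, the percent of ligand TPM from Tgfb3, the percent of receptor TPM from Tgfbr3 and the ratio of Smad3 to Smad7 TPM, each on an axis from 0. The Tgfb3 share falls from 20.4% to 13.8%, the Tgfbr3 share from 23.7% to 13.9%, and the SMAD ratio from 2.38 to 1.71 between CK and the combination.

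The question of what each drug added to the other was addressed by the comparisons of the combination with each single treatment. Against PB-020 alone, 1 of 9 members was called, where the rule called 3.35% of all genes (1.25% higher, 2.11% lower). This was Tgfbr3, which fell by 45.6% (log2 change -0.88, SE 0.19, adjusted p = 0.0363). Leaving out 1 tumor ended this call in 6 of 12 cases: PB-020 tumor 1 (-0.77, adjusted p = 0.154) or tumor 3 (-0.83, 0.122), combination tumor 1 (-0.73, 0.137), tumor 2 (-0.92, 0.102) or tumor 3 (-0.99, 0.0594), and CK tumor 3 (-0.87, 0.0504). Over all genes, those fits called 1, 11, 0, 2, 105 and 374 in that order, against 455 with all 12 tumors. By fold over 1.5 with an unadjusted p under 0.05 it was likewise 1 of 9, against 5.93% of all genes, and 3 of 9 had an unadjusted p under 0.05, against 22.4%. The combination tumors lay below all PB-020 tumors for both Tgfbr3 and Tgfb3, a separation found for 30.2% of all genes in either direction. Tgfb3 was at -0.30 (95% interval -0.55 to -0.06, adjusted p = 0.134) in this comparison and passed only with the 6 tumors compared in the fit (adjusted p = 0.038). That fit called 1535 genes in all, against 455 with all 12 tumors. Against anti-PD-1 alone, edgeR called 0 of 9 members and 0% of all genes, and DESeq2 called 0 of the 9. The single member under an unadjusted p of 0.05 was Smad3, at -0.27 (95% interval -0.47 to -0.06, unadjusted p = 0.0142, adjusted p = 0.663), and 7.26% of all genes were under that p. Tgfbr3 was at -0.29 (-0.70 to 0.12) and Tgfb3 at -0.22 (-0.46 to 0.03) there.

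The interaction, the change of the combination beyond the sum of the single changes on the log2 scale, was called for 0 of 9 members by edgeR and by DESeq2 and for 0% of all genes by edgeR. At an unadjusted p of 0.05, which 2.29% of all genes passed, were Smad7 at -0.43 (SE 0.15, unadjusted p = 0.0141) and Smad3 at -0.32 (SE 0.13, unadjusted p = 0.0311), each with an adjusted p of 1. For Tgfbr3 it was 0.01 (95% interval -0.56 to 0.59), an interval that spans departures of up to about 1.5-fold.

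Averaged over both backgrounds, with 6 antibody-treated tumors against 6 without the antibody, 3 of 9 members were called, where the rule called 24.2% of all genes (11.8% higher, 12.3% lower). Past a fold of 1.5 with an unadjusted p under 0.05 was 1 of 9, Tgfbr3, against 7.73% of all genes, and 5 of 9 had an unadjusted p under 0.05, against 37.9%. Tgfbr3 was at -0.88 (SE 0.13, adjusted p = 0.00165), Smad7 at 0.33 (SE 0.08, adjusted p = 0.00967) and Tgfb3 at -0.29 (SE 0.08, adjusted p = 0.0196). The calls of Tgfbr3 and Smad7 held in all 8 other processing settings and without each of the 12 tumors, and that of Tgfb3 was lost only without CK tumor 2 (-0.23, adjusted p = 0.0526). Over all genes, 2156 were called without that tumor, against 3279 with all 12 tumors. Tgfb1 was at 0.17 (adjusted p = 0.101) and passed without anti-PD-1 tumor 2 (0.23, adjusted p = 0.00965). Tgfbr2 was at -0.16 (adjusted p = 0.226) and passed without anti-PD-1 tumor 1 (-0.26, adjusted p = 0.00528). Over all genes, 3690 were called without anti-PD-1 tumor 2 and 2980 without anti-PD-1 tumor 1, against 3279 with all 12 tumors. The average effect of PB-020 was called for 0 of 9 members and 0% of all genes by edgeR and for 0 of 9 by DESeq2. Tgfb3 (-0.20, unadjusted p = 0.0237) and Tgfbr3 (-0.30, unadjusted p = 0.044) were under an unadjusted p of 0.05 there, as 10.9% of all genes were, with adjusted p of 0.387 and 0.442.

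**Figure D4:**
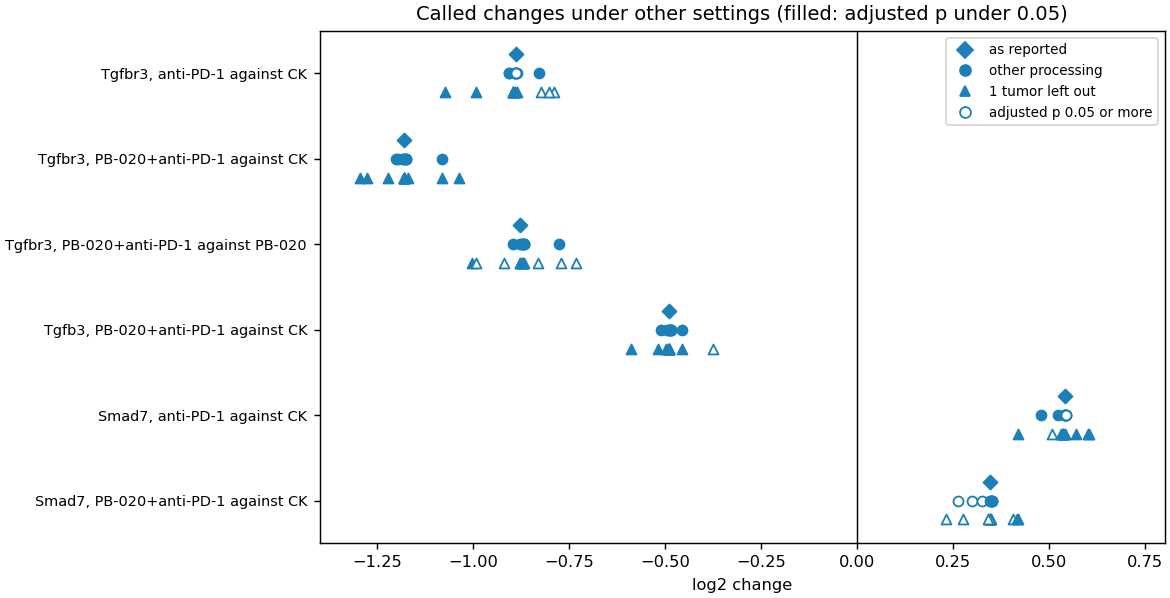
Log2 changes (horizontal axis) of the 6 calls between pairs of groups are shown as reported (diamonds), under other processing (circles, among them limma on log2 FPKM with a pseudocount) and with 1 tumor left out (triangles), filled where the adjusted p is under 0.05. No point crosses 0, the points of Tgfbr3 in the combination against CK are all filled, and those of Smad7 in the combination are filled in part.

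Of 61 other genes of the pathway, 59 passed the filter, and Itgb6 and Smad9 did not. With the combination 10 of the 59 were called against CK, 2 higher and 8 lower, where 17.9% of all genes were called, and the median log2 change over the 59 was 0.04. Under anti-PD-1 alone 8 were called, 2 higher and 6 lower (median 0.08), where 8.26% of all genes were called, and under PB-020 alone edgeR called 0 (median -0.04). The 6 lower under anti-PD-1 alone lay in the lists of storage and activation (2), other receptors (1), SMADs (1), proteoglycans (1) and targets (1). Among the genes of TGF-beta storage and activation, 2 of 10 fell with the combination: the latent binding proteins Ltbp3, from 44.6 ± 4.51 to 32.5 ± 2.94 FPKM (SD, n = 3, log2 change -0.43, adjusted p = 0.00506), and Ltbp4, from 186 ± 19.3 to 138 ± 14.0 FPKM (-0.41, adjusted p = 0.0141). With anti-PD-1 alone Ltbp3 was at 35.8 ± 1.71 and Ltbp4 at 142 ± 2.80 FPKM. Both were called lower there too (adjusted p = 0.046 and 0.0349). Of the 9 other receptors of the family, 1 fell, the type I receptor Acvr1, which binds activins and bone morphogenetic proteins (17.6 ± 2.12 to 11.98 ± 1.71 FPKM, -0.54, adjusted p = 0.00677). Of 5 SMADs and SMAD anchors, 1 fell, Smad5, which transduces bone morphogenetic protein signals (23.7 ± 2.16 to 17.8 ± 0.58 FPKM, -0.39, adjusted p = 0.00923). Smad2 and Smad4, the partners of Smad3 and named after their values were seen, were at 8.96 ± 0.51 and 32.5 ± 2.05 FPKM in CK and at 8.56 ± 0.57 and 31.0 ± 2.05 FPKM with the combination, and did not pass. Of the 10 intracellular inhibitors, 1 fell, the SMAD co-repressor Ski (50.4 ± 1.92 to 40.8 ± 3.63 FPKM, -0.29, adjusted p = 0.0135), so that Ski and Smad7, both inhibitors of the signal, changed in opposite directions.

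Of 3 proteoglycans that bind TGF-beta, decorin (Dcn) fell from 396 ± 104 to 169 ± 41.7 FPKM (log2 change -1.21, adjusted p = 0.0103) and biglycan (Bgn), named after its values were seen, was at 828 ± 53.2 and 873 ± 70.3 FPKM and did not pass. Fibromodulin (Fmod), named after its values were seen, had the largest change of the lists at 2.63 but a wide interval (0.43 to 4.83, adjusted p = 0.0935). Of 22 genes commonly read as targets, 2 rose and 2 fell with the combination, 4 in all against 17.9% of all genes. Type III collagen (Col3a1) fell from 1349 ± 177 to 452 ± 78.0 FPKM (-1.56, adjusted p = 0.0023) and fibronectin (Fn1) from 211 ± 36.0 to 122 ± 15.2 FPKM (-0.76, adjusted p = 0.0223). The matricellular protein periostin (Postn) rose from 71.6 ± 13.0 to 179 ± 22.3 FPKM (1.34, adjusted p = 0.039), and the smooth muscle actin-binding protein transgelin (Tagln) from 10.7 ± 2.78 to 21.6 ± 1.72 FPKM (1.04, adjusted p = 0.0451). With anti-PD-1 alone Dcn, Col3a1 and Fn1 were at 166 ± 31.9, 529 ± 182 and 146 ± 47.8 FPKM. Postn and Tagln were at 153 ± 93.2 and 19.5 ± 7.24 FPKM in that group. Genes of the target list thus moved both ways, with a median log2 change of 0.22 over the list. The study's text names collagen among the lowered genes that it chose on these same tumors. The directions of Col3a1 and Fn1 given here come from those tumors too, so they are not independent evidence. The genes that rose under anti-PD-1 alone, named after their values were seen, were the ubiquitin ligase Smurf1, a partner of Smad7 (0.47, adjusted p = 0.0294), and the matricellular target Ccn1 (0.43, adjusted p = 0.0367). The 10 calls for the combination became 14 without anti-PD-1 tumor 1, 4 without CK tumor 2, 5 without combination tumor 1 and 6 without combination tumor 2, and 16 when only the 6 tumors compared were fitted. Over all genes, the calls went the same way, from 2434 to 3344, 864, 1085, 1160 and 2988 in that order.

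**Figure D5:**
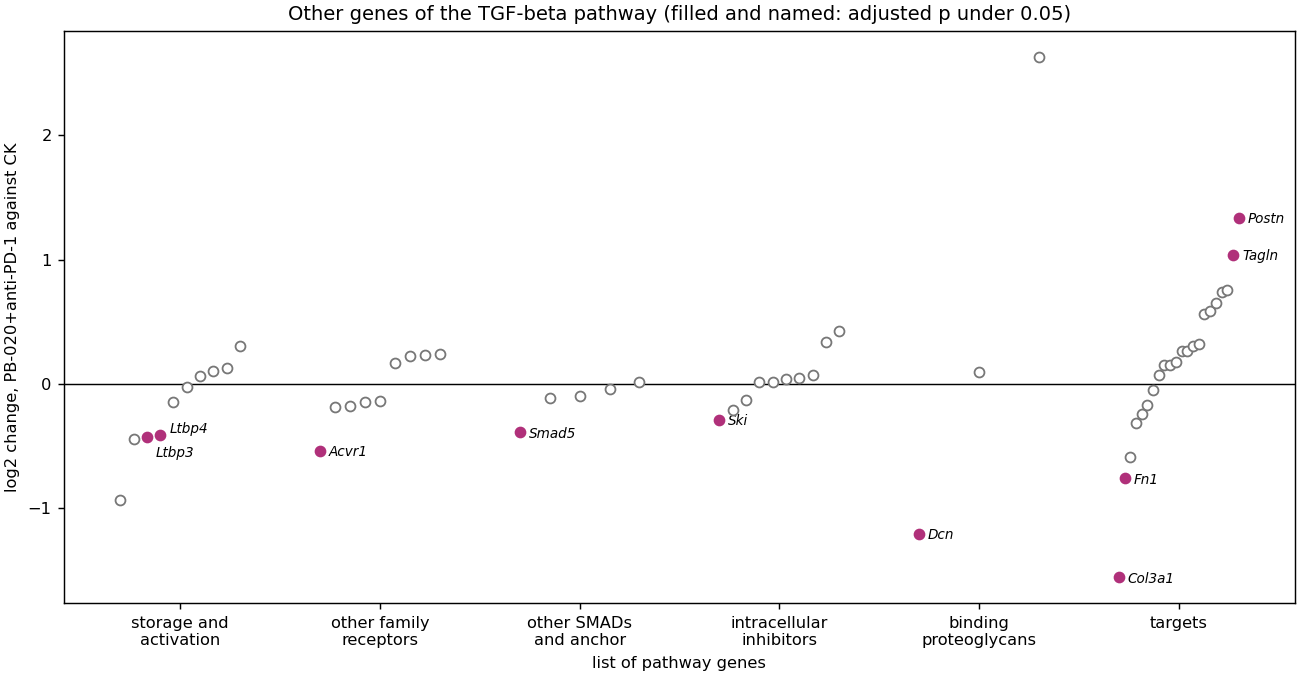
Each circle is a gene of one of 6 lists of pathway genes (horizontal axis), placed by its log2 change in the combination against CK (vertical axis), and filled, named circles have an adjusted p under 0.05. The 8 genes that fell lie in all 6 lists, with Col3a1 lowest at -1.56, and the 2 that rose, Postn at 1.34 and Tagln at 1.04, are in the target list, while the open circle at 2.63 is Fmod.

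Markers of other cell types moved in the same tumors. They are counted below as risen or fallen at an adjusted p under 0.05. Under anti-PD-1 this rule called 8.26% of all genes (4.18% higher, 4.08% lower). Under the combination it called 17.9% (8.35% higher, 9.6% lower). The summed level of 10 fibroblast genes was 1903 to 2549 FPKM in CK, 1788 to 1867 FPKM with PB-020, 920 to 1813 FPKM with anti-PD-1 and 990 to 1394 FPKM with the combination, and none of the 10 was at 0. Of these genes 4 fell under anti-PD-1, and 4 fell and 1 rose under the combination, although the median log2 change of the list was above 0, at 0.41 and 0.28. The list holds Dcn, Col3a1 and Postn, which are also among the pathway genes. The 8 T cell genes summed to 11.4 to 15.7 FPKM in CK and 31.0 to 52.8 FPKM with the combination, where 7 of 8 rose, and to 26.7 to 67.2 FPKM with anti-PD-1, where 6 of 8 rose. The 8 endothelial genes summed to 49.5 to 74.6 FPKM in CK and 43.9 to 51.4 FPKM with the combination, where 1 of 8 fell, and the 6 pericyte and smooth muscle genes to 56.0 to 61.7 and 63.0 to 73.9 FPKM, where none of the 6 passed. The 6 erythroid genes summed to 679 to 1556 FPKM in CK, 449 to 1046 FPKM with PB-020, 101 to 380 FPKM with anti-PD-1 and 127 to 184 FPKM with the combination. All 5 erythroid genes tested fell under anti-PD-1 and under the combination, with a median log2 change of -2.36 and -2.99. The 4 regulatory T cell genes summed to 2.44 to 3.13 FPKM in CK, 3.47 to 9.46 FPKM with anti-PD-1 and 5.49 to 7.20 FPKM with the combination, and 2 of 4 rose in either. Of 3 platelet genes tested 1 fell under the combination. The 3 keratinocyte genes summed to 78.3 to 116 FPKM in CK, 108 to 135 FPKM with PB-020, 132 to 183 FPKM with anti-PD-1 and 166 to 208 FPKM with the combination. Of these genes 1 of 3 rose under anti-PD-1 and 1 of 3 under the combination. The part of these cell types in the changes of Tgfbr3, Tgfb3, Smad7 and the matrix genes was not tested.

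The genes whose log2 CPM (counts scaled to library size) across the 12 tumors followed a member most closely were listed by Pearson correlation over all genes tested, with Spearman's rho beside it, as a description over tumors that share group, processing and cell mixture. Tgfbr3 was followed most closely by Rgmb, a co-receptor for bone morphogenetic proteins (r = 0.991, rho = 0.986), then by Abhd4, a lipid hydrolase (r = 0.984, rho = 0.986), and the transcription factor Nfix (r = 0.98, rho = 0.937). Tgfb3 was followed by the endocytic adaptor Dab2 (r = 0.954, rho = 0.972), Tanc1 (r = 0.951, rho = 0.909) and fibronectin, Fn1 (r = 0.948, rho = 0.965). Smad7 was followed less closely, by the glycosyltransferase Pomgnt1 (r = 0.922, rho = 0.874), Zbtb40 (r = 0.918, rho = 0.888) and Ralgapa2 (r = 0.915, rho = 0.902).
Tgfb1 was nearest to Rhbdf2, an inactive rhomboid protein (r = 0.951, rho = 0.951), then Tspyl3 (r = 0.951, rho = 0.944) and Cpz (r = 0.932, rho = 0.909). Tgfbr2 was nearest to Maml2, a Notch co-activator (r = 0.948, rho = 0.916), the aggrecanase Adamts5 (r = 0.941, rho = 0.937) and Pld3 (r = 0.932, rho = 0.923). For Tgfbi the nearest were the kinase Pak2 (r = 0.922, rho = 0.853), Camsap1 (r = 0.917, rho = 0.86) and Zfp592 (r = 0.908, rho = 0.874). For Smad3 they were Gatad2b (r = 0.887, rho = 0.867), Dhdds (r = 0.862, rho = 0.804) and Fbxo41 (r = 0.856, rho = 0.776). For Tgfbr1 they were Stk38 (r = 0.856, rho = 0.727), Kdm7a (r = 0.855, rho = 0.643) and Sgcb (r = 0.849, rho = 0.846). For the low Tgfb2 they were Snx32 (r = 0.898, rho = 0.818), Rbpms (r = 0.879, rho = 0.797) and Gm29801 (r = 0.878, rho = 0.902). Without the 2 tumors farthest from the median of the member, r was 0.986 for Tgfbr3 with Rgmb, 0.959 for Tgfb3 with Dab2 and 0.80 for Smad7 with Pomgnt1, and it dropped most for Kdm7a with Tgfbr1, to 0.535.

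Among the members themselves, the closest pair over the 12 tumors was Tgfb3 and Tgfbr3 (r = 0.77, rho = 0.755), followed by Tgfb3 and Tgfbr1 (r = 0.657, rho = 0.385). The most opposed pair was Tgfbr3 and Smad7 (r = -0.67, rho = -0.776). Tgfb3, Tgfbr3 and Smad7 differed between the groups, so the values pooled over groups hold those differences. Smad3 and Smad7 showed little relation (r = 0.361, rho = 0.154), as did Tgfb1 and its target gene Tgfbi (r = 0.244, rho = 0.245).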

How the data were processed

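RNA of 12 MC38 tumors was measured, 3 in each of 4 groups given by the sample labels. The authors sequenced paired reads, filtered them, aligned them with Bowtie2 and quantified genes with RSEM, and the submitters' processing notes list HISAT, Bowtie2 and the build GRCm38.p6, with versions and annotation not given in the sources used here. The authors deposited expected counts (estimated, not normalized, 91.0% of them whole numbers) and, computed by the authors from them, FPKM and TPM per tumor. Columns of group averages hold the authors' means and were not used. Library totals were 16545394 to 17217035.

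Expected counts were rounded and fitted in edgeR 4.0.16 (R 4.3.3) with filterByExpr (minimum count 10), TMM scaling, robust quasi-likelihood estimation and 4 group means over all 12 libraries, which leaves 8 residual degrees of freedom. Tests were two-sided, with Benjamini-Hochberg adjustment over the 13563 genes tested and a threshold of 0.05. FPKM served for levels, TPM for proportions, and log2 CPM (prior count 2) for correlations. The alternatives were DESeq2 1.42.0, limma 3.58.1 on log2(FPKM + 1) and log2(FPKM + 0.1), no filter, a filter of 1 CPM in every library, library size alone, DESeq2 size factors, only the groups compared, a replicate block, a call rule of fold over 1.5 with unadjusted p under 0.05, and leaving out each library. The steps were tested on simulated data. Of the 18211 gene numbers, 18091 matched RefSeq of GRCm38.p6, whose 1-based coordinates are given. The labels do not say more on how the tumors relate, so p-values measure the spread between these tumors.

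The members and lists were chosen with earlier results of these data known. Named are the 9 members, from each pathway list up to 4 genes of smallest p among those called in the combination against CK, and for each member the 3 genes of highest Pearson correlation, and genes outside this rule are marked where they appear.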

Additional observations from a re-analysis of the deposited data

How the results depend on the processing

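No member called in any comparison changed direction under any setting tried. Counting genes past a fold of 1.5 with an unadjusted p under 0.05, 1 of 9 members was called for anti-PD-1 against CK, 1 for the combination against CK and 1 for the average effect of anti-PD-1, since Smad7 and Tgfb3 changed by less than that fold. With only the groups compared in the fit, 0 members were called for anti-PD-1 against CK, 4 for the combination against CK (Tgfbr2 added), 2 for the combination against PB-020 (Tgfbr3 and Tgfb3), and 16 pathway genes for the combination against CK. Leaving out 1 library gave 0 to 4 members for anti-PD-1 against CK (0 without anti-PD-1 tumor 3, 1 without CK tumor 2, 4 without anti-PD-1 tumor 2), 1 to 4 for the combination against CK (1 without CK tumor 2), 0 to 1 for the combination against PB-020, and 4 to 14 pathway genes. Over all genes, those fits called 137 to 1905, 864 to 3344 and 0 to 1269 in these comparisons. For anti-PD-1 against CK they called 238 without anti-PD-1 tumor 3, 137 without CK tumor 2 and 1905 without anti-PD-1 tumor 2. For the combination against CK, 864 were called without CK tumor 2. Leaving out a library of another group changes the shared spread and the scaling.

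With the replicate number as a block (replicate block), 2 members were called for anti-PD-1 against CK, 2 for the combination against CK, 1 for the combination against PB-020 and 3 for the average effect of anti-PD-1, and 9 pathway genes for the combination against CK. Smad7 in the combination was lost. Over all genes, the block called 870, 2010, 320 and 2711 in the order of the member counts. Without the block, 1120, 2434, 455 and 3279 were called. The labels do not say what the number stands for. Of 18 same-numbered pairs, deviations from the group mean correlated between -0.21 and 0.289, and 2 pairs were over 0.1. For each tumor, the correlations with tumors of other groups were averaged by number. The own number had the highest mean for 2 of 12 tumors, so the numbers were not taken as pairs. The limits are 3 tumors per group, whole-tumor RNA, and for Tgfb2 a level of under 1 FPKM. No scaling moved the median of all genes by 0.1 on the log2 scale.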
